A study of Mus musculus with 2 samples.

Results

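The genes described here are 10 transcripts of T cells and cytotoxic lymphocytes, chosen by name. They are the CD3 subunits Cd3d, Cd3e and Cd3g, the coreceptors Cd4, Cd8a and Cd8b1, the transcription factor Foxp3, and the granule genes Gzma, Gzmb and Prf1. All 10 were among the 20003 genes of the deposited table, and all 10 reached a mean of 1 CPM over the libraries, where CPM is a read count divided by the scaled size of its library. The series asked how a block of Hedgehog signalling changes macrophage transcriptomes, and 2 libraries were deposited. Cells of the M2+GANT61 library had received 10 µM GANT61, an inhibitor of the GLI transcription factors of the Hedgehog pathway, and those of the M2+DMSO library the solvent DMSO. Both were labelled RAW 264.7, an established mouse macrophage line, and both had been given 20 ng/mL M-CSF and, 4 h after the agent, 10 ng/mL IL-4. For the exposure to IL-4, one text of the labels says 15 min and another 24 h.

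T cells recognise antigen through the T cell receptor, whose signal enters the cell through the CD3 subunits. The coreceptors set the kind of cell: CD8, a pair of an alpha and a beta chain on cytotoxic T cells, binds MHC class I, and CD4, on helper and regulatory T cells, binds MHC class II. Foxp3 defines regulatory T cells. Cytotoxic T cells and natural killer cells kill by releasing perforin, which opens membranes, together with granzymes, which are serine proteases.

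Macrophages do not assemble the CD3 complex, so these transcripts also serve as a check of the label. Both libraries held all of them, with 249 to 3127 reads per gene in the DMSO-labelled library and 639 to 3263 in the GANT61-labelled library. Macrophage markers were abundant as well, at a summed level of 4183 and 10909 CPM over 15 genes. Fibroblast markers summed to 7604 and 8459 CPM over 7 genes and epithelial markers to 3145 and 2756 CPM over 6 genes. By the call rule given below, none of the 7 fibroblast markers was called, 1 epithelial marker was higher and 1 lower, and 2 of 6 endothelial markers were lower, at a summed 523 and 447 CPM. Adipocyte markers were lower in 6 of 6 cases, at a summed 2798 and 439 CPM with a median log2 ratio of -2.69. The label of a single macrophage line and these transcripts go against each other, and each library is therefore named by its label. In RNA pooled over cells, fewer cells of a type and less RNA per cell cannot be told apart. The totals were 61632784 reads in the DMSO-labelled and 57705874 in the GANT61-labelled library. Each group had 1 library, so replicate spread is unknown, no test was made, and all intervals cover counting error only.

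Of the 10 genes, Foxp3 and Cd4 were higher in the GANT61-labelled library, none was lower, and 8 were neither. All ratios below divide the GANT61-labelled by the DMSO-labelled library. A gene was called higher at a ratio of 1.5 or more and lower at 0.667 or less, provided that its 95% exact interval left out 1 and that it averaged 1 CPM or more. By this rule 14.1% of the 13939 genes considered were higher and 10.3% lower, 24.4% in all. The 2 of 10 called higher lie close to that background, so the count says nothing particular about these genes. Their median log2 ratio was 0.16, against -0.01 over all genes considered. The differences among the 10 were the larger feature. The CD3 subunits were level, both CD8 chains were at 0.721 of the DMSO-labelled library, the granule genes were at 1.15 to 1.39, and Cd4 and Foxp3 were at 2.36 and 2.82.

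**Figure D1:**
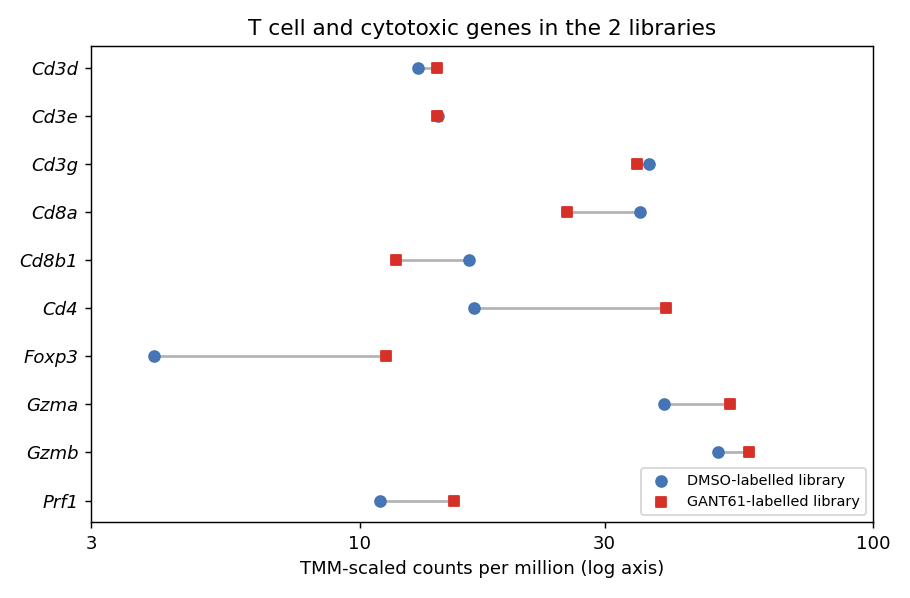
Level of each of the 10 genes in TMM-scaled CPM on a log axis, with circles for the DMSO-labelled and squares for the GANT61-labelled library, 1 library each. The CD3 symbols nearly coincide, the Cd8a and Cd8b1 squares lie left of their circles, and the Cd4 and Foxp3 squares lie far to the right.

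Upstream sequences are shown for Cd8a and Foxp3, at the ends of this range, and for the 3 granule genes, none of which was called. The genes and motifs were chosen after the values were seen, and a link of any match to the compound was not tested. Windows of 250 bases before the start site were taken from RefSeq (GRCm38.p6), which gave 9 windows for 8 of the 10 genes. No window was held for Cd4 or Cd8b1. The windows printed are Cd8a at chr6:71373177-71373426 (plus strand), Foxp3 at chrX:7580233-7580482 (plus strand, the second of its start sites), Gzma at chr13:113100982-113101231 (minus strand), Gzmb at chr14:56262335-56262584 (minus strand) and Prf1 at chr10:61297586-61297835 (plus strand). Each is written 5′ to 3′ on the gene's strand. Capitals mark the RUNX core TGTGGT, the ETS core AGGAAGT and the NFAT core GGAAA, on either strand.
Cd8a: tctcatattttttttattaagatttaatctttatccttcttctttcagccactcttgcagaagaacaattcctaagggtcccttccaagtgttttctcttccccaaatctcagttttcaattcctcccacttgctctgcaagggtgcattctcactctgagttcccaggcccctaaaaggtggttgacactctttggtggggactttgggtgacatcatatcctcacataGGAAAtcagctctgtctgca
Foxp3: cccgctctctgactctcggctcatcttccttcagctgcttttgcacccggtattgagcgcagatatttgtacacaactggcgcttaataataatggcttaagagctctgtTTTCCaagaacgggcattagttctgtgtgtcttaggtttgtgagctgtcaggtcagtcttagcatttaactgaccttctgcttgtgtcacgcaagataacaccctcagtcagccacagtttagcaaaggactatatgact
Gzma: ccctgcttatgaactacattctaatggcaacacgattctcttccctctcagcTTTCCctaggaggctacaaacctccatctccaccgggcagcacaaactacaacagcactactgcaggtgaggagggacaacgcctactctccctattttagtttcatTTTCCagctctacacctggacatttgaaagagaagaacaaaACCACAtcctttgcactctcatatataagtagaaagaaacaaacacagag
Gzmb: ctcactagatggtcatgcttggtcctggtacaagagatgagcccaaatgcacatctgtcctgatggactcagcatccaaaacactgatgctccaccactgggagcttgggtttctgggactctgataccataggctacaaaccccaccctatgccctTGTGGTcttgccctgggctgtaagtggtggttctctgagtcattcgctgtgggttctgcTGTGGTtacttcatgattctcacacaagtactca
Prf1: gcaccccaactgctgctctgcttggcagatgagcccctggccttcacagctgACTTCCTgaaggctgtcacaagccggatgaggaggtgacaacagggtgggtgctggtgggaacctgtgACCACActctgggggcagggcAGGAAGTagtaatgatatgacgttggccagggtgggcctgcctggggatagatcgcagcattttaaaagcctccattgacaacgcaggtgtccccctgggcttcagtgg

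The GLI consensus GACCACCCA and its core CCACCCA, which is part of it, were in none of the 9 windows on either strand. Over 32851 RefSeq windows of the same length, 0.225% held the consensus and 8.11% the core. The RUNX core was in the windows of all 3 granule genes, once in Gzma and Prf1 and at 2 places in Gzmb, and in none of the other windows. It was in 14.05% of all windows. The ETS core was in Cd3d, Cd3e and, at 2 places, in Prf1, against 7.69% of all windows. The NFAT core was in the windows of Cd3d, Cd3e, Cd3g, Cd8a, Foxp3 and Gzma, against 55.6% of all windows. None of the marked stretches overlapped another. These are matches of letters within the windows and say nothing of binding.

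On the TMM scale the CD3 subunits did not differ between the libraries beyond counting error. Cd3d had 815 reads in the DMSO-labelled and 803 in the GANT61-labelled library, or 13.0 and 14.1 CPM (ratio 1.09, interval 0.983 to 1.20). Cd3e had 889 and 805 reads, or 14.2 CPM in both (ratio 0.997, interval 0.905 to 1.10). Cd3g had 2286 and 1967 reads, or 36.5 and 34.6 CPM (ratio 0.948, interval 0.892 to 1.01). All 3 intervals included 1. Per read of the other 2 subunits, which needs no scaling, Cd3d was at 1.13 (1.01 to 1.26), Cd3e at 1.01 (0.908 to 1.13) and Cd3g at 0.912 (0.832 to 0.9997). The intervals of Cd3d and Cd3g there left out 1 narrowly. On the TMM scale, the difference that these depths leave room for is a ratio between 0.892 and 1.20 over the 3 genes. Per length, Cd3g was the most abundant of the 3, at 28.3 and 26.7 RPKM (reads scaled by gene model length and library size, as deposited). Cd3d was at 7.77 and 8.39 RPKM and Cd3e at 7.73 and 7.68 RPKM, so that Cd3g stood 3.65 and 3.18 times above Cd3d. The 3 genes are neighbours on chromosome 9 of GRCm38 (mm10). Cd3g lies at 44969572 to 44980431 on the minus strand, Cd3d at 44981786 to 44987339 on the plus strand and Cd3e at 44998740 to 45009627 on the minus strand. Cd3g and Cd3d are divergent, with 1354 bases between them.

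Other genes that carry the receptor signal differed among themselves. Cd247, the zeta chain that completes the CD3 complex, was at 9.57 and 12.6 CPM (ratio 1.32, interval 1.18 to 1.47). Lck, the kinase that phosphorylates the CD3 chains, was at 34.99 and 37.50 CPM (ratio 1.07, interval 1.01 to 1.14). Zap70, the kinase recruited to them, was at 9.27 and 10.3 CPM (ratio 1.11, interval 0.985 to 1.24). Of 29 genes of receptor signalling, 11 were higher, none lower and 18 neither, beside 14.1% higher and 10.3% lower of all genes considered. The median log2 ratio of the list was 0.41, against -0.01 over all genes considered. The called genes of the signalling list included Trat1, an adaptor of the receptor, with 43 and 105 reads, at 2.67 (1.87 to 3.93). Trat1 was at 0.687 and 1.85 CPM. It reached the floor only through the GANT61-labelled library, so passing it favoured a high ratio. Also called were Vav1 at 2.10 (2.01 to 2.20), Lcp2 at 2.0 (1.92 to 2.09) and Was at 1.79 (1.67 to 1.92). These act in signalling of many blood cells, macrophages among them. Cd2, an adhesion receptor of T and natural killer cells, was at 16.4 and 23.9 CPM (ratio 1.46, interval 1.34 to 1.58). Themis, which T cells need to mature, was at 0.774 (0.669 to 0.894), and Skap1, an adaptor for adhesion, at 0.877 (0.785 to 0.980), both below 1 but not called. Macrophage markers stood beside this list with 14 of 15 higher, 1 lower and a median log2 ratio of 0.97, and their part in it was not tested. Of the 12 entries of the receptor list, 5 were in the table, and the constant regions of the receptor chains were not analysed here.

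Both CD8 chains differed by the same proportion, with the lower level in the GANT61-labelled library. Cd8a, the alpha chain, had 2198 and 1439 reads, or 35.1 and 25.3 CPM (ratio 0.721, interval 0.674 to 0.771). Cd8b1, the beta chain, had 1022 and 669 reads, or 16.3 and 11.8 CPM (ratio 0.721, interval 0.653 to 0.795). Neither reached the threshold of 0.667, while both intervals lay below 1. Cd8a reads per Cd8b1 read were 2.15 in both libraries, a ratio between libraries of 1.0 (0.887 to 1.13). Per length the chains were close to equal, at 8.90 and 8.75 RPKM in the DMSO-labelled and 6.39 and 6.28 RPKM in the GANT61-labelled library. The alpha chain without the beta chain is also found on a class of dendritic cells, and 2 markers of that class stood beside it. Xcr1 was at 6.87 and 5.40 CPM (ratio 0.787, interval 0.677 to 0.912), and Clec9a at 5.46 and 4.40 CPM (ratio 0.805, interval 0.681 to 0.95). Over 13 markers of conventional dendritic cells, 6 were higher and 0 lower, beside 14.1% and 10.3% of all genes considered. The summed levels of these markers were 702 and 850 CPM. Cd24a alone made up 417 and 349 CPM of these sums. Markers of that list did not share a direction. Batf3 was at 1.298, Wdfy4 at 2.16 and Itgae at 1.11, with intervals above 1. Tlr3 was at 0.775 and Cd24a at 0.838, with intervals below 1. The part of dendritic cells in the Cd8a level was not tested. Cd8b1 lies on chromosome 6 at 71322788 to 71337494 and Cd8a at 71373427 to 71379173, both on the plus strand. The nearest genes on either side did not share the ratio. Rmnd5a was at 0.991 (0.954 to 1.03), and Smyd1 had 30 and 49 reads. Further out, Krcc1 was at 0.811 (0.782 to 0.840) and Rnf103 at 0.871 (0.818 to 0.927), both with intervals below 1.

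**Figure D2:**
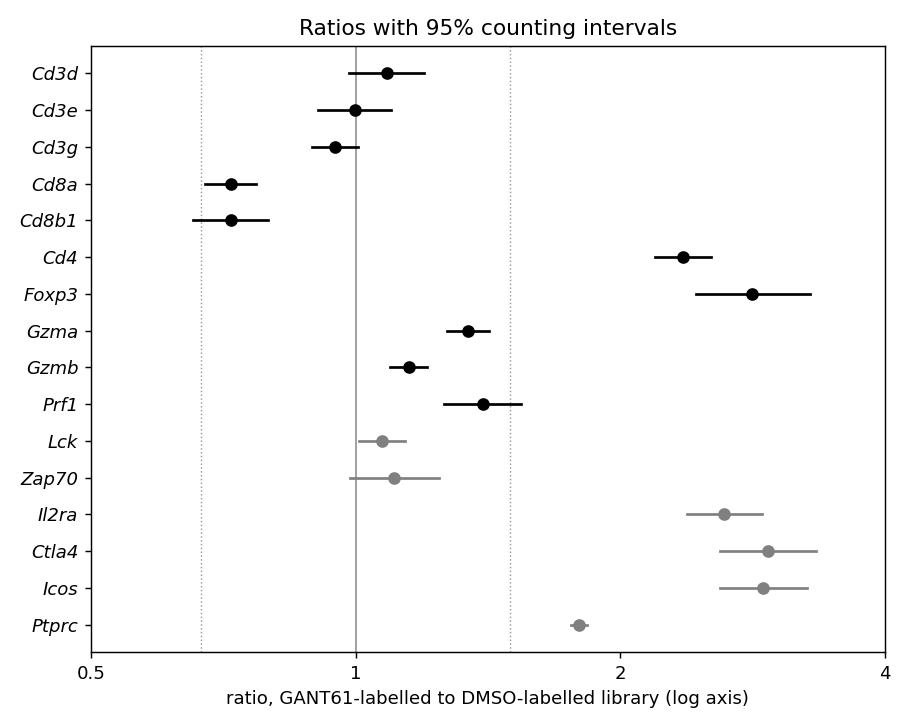
Ratio of the libraries, GANT61-labelled over DMSO-labelled, on a log axis for the 10 genes (black) and 6 genes set beside them (grey), with 95% exact counting intervals, 1 library per group. Dotted lines mark the call thresholds of 1.5 and 0.667, past which lie Cd4, Foxp3, Il2ra, Ctla4, Icos and Ptprc.

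Cd4 differed in the other direction. It had 1047 and 2242 reads, or 16.7 and 39.5 CPM (ratio 2.36, interval 2.19 to 2.54). Per length it was at 4.30 RPKM, 0.483 of Cd8a, in the DMSO-labelled library and at 10.1 RPKM, 1.58 of Cd8a, in the GANT61-labelled library. The order of the coreceptors was thus opposite in the libraries, and Cd4 reads per Cd8a read differed by a factor of 3.27 (2.96 to 3.62). Some macrophages and dendritic cells also carry CD4. Ptprc, which encodes CD45 of all leukocytes, was at 224 and 403 CPM (ratio 1.80, interval 1.76 to 1.84), and the macrophage markers had a summed level of 4183 and 10909 CPM. Siglech, a marker of plasmacytoid dendritic cells, which can also carry CD4, was at 3.72 and 15.2 CPM (ratio 4.06, interval 3.52 to 4.72). Over 7 markers of those cells, 4 were higher and 1 lower, beside 14.1% and 10.3% of all genes considered. The summed levels of these markers were 662 and 574 CPM. Bst2 made up 381 and 324 CPM of these sums, and Tcf4 made up 236 and 152 CPM. The part of all these cells in the Cd4 level was not tested. Cd4 lies on chromosome 6 at 124864692 to 124888221 on the minus strand, and its neighbour Lag3, a receptor of activated T cells, was at 1.19 (1.08 to 1.31).

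Foxp3 had the largest ratio of the 10 genes and the lowest level. It had 249 and 639 reads, or 3.98 and 11.2 CPM (ratio 2.82, interval 2.44 to 3.29), and 0.802 and 2.26 RPKM. Some other genes that are abundant in regulatory T cells had ratios close to it, while others were nearer to 1. Il2ra, the high-affinity chain of the IL-2 receptor, was at 9.09 and 23.9 CPM (ratio 2.63, interval 2.38 to 2.90). Ctla4, an inhibitory receptor, was at 5.51 and 16.2 CPM (ratio 2.94, interval 2.60 to 3.34). Foxp3 reads per Il2ra read differed between libraries by a factor of 1.08 (0.899 to 1.29) and per Ctla4 read by 0.959 (0.788 to 1.17), intervals that both include 1. Per Cd4 read the factor was 1.20 (1.01 to 1.42), so that Foxp3 and Cd4 stood apart by little. Of 12 genes of the regulatory T cell list, 11 reached the floor, 7 were higher and 0 lower. The median log2 ratio of the list was 0.86, against -0.01 over all genes considered, where 14.1% were higher and 10.3% lower. Tnfrsf4, the costimulatory receptor OX40, was at 2.47 (2.10 to 2.93). Tigit was at 1.94 (1.75 to 2.15), Tnfrsf18 at 1.72 (1.53 to 1.93) and Lrrc32 at 1.13 (1.06 to 1.22). Ikzf2, the transcription factor Helios, was at 20.7 and 22.7 CPM (ratio 1.10, interval 1.02 to 1.19), as was Itgae, an integrin of tissue lymphocytes and dendritic cells, at 1.11 (1.02 to 1.20).

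Foxp3 lies on chromosome X at 7573644 to 7595245 on the plus strand, where it overlaps other genes. Of its annotated exonic bases, 12.9% are shared with exons of Ccdc22 and 5.81% with exons of Ppp1r3f, both on the minus strand, and 18.6% with Flicr, a noncoding RNA on its own strand. The deposited Foxp3 values, 248.564 and 639.041, were not whole, so some of its reads may have been divided between genes. Ccdc22 was at 24.9 and 30.7 CPM (ratio 1.23, interval 1.15 to 1.32). Ppp1r3f was at 2.46 and 3.89 CPM (ratio 1.58, interval 1.28 to 1.95), and Flicr had 30 and 7 reads. The strand setting of the counting was not given in the sources used here, so reads of Foxp3 and of its antisense neighbours may not have been told apart. Cd8a was the other gene of the 10 with values that were not whole, at 2198.03 and 1439.01.

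Many genes of the T cell surface were higher. Of 22 genes of costimulation and T cell surface, 21 reached the floor, 13 were higher, none lower and 8 neither. The median log2 ratio was 0.78, against -0.01 over all genes considered, where 14.1% were higher and 10.3% lower. Icos, a costimulator of activated and regulatory T cells, was at 6.73 and 19.6 CPM (ratio 2.91, interval 2.60 to 3.26). Tnfrsf9, the receptor 4-1BB, was at 2.87 (2.71 to 3.03). Ccr8, a chemokine receptor of regulatory and type 2 helper T cells, had 61 and 162 reads (ratio 2.91, interval 2.17 to 3.99). At 0.975 and 2.85 CPM, Ccr8 reached the floor only through the GANT61-labelled library, so passing it favoured a high ratio. Some abundant members were not called. Il2rb was at 1.43 (1.36 to 1.5), Cxcr6 at 1.20 (1.11 to 1.29) and S1pr1, also of endothelium, at 0.993 (0.943 to 1.04). Among 15 transcription factors of the T lineage, 2 were higher, 3 lower and 10 neither, and the median log2 ratio was 0.14. Beside Foxp3, the higher one was Runx3, a factor of CD8 T cells, at 21.7 and 46.4 CPM (ratio 2.14, interval 2.01 to 2.29), opposite in direction to the CD8 chains. The lower ones included Lef1 at 0.410 (0.357 to 0.470) and Gata3 at 0.591 (0.569 to 0.614), which are both also active outside lymphocytes. Epithelial markers summed to 3145 and 2756 CPM beside them.

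The granule genes were slightly higher in the GANT61-labelled library, and none of the 3 was called. Gzma, granzyme A, had 2451 and 2988 reads, or 39.2 and 52.6 CPM (ratio 1.34, interval 1.27 to 1.42). Gzmb, granzyme B, had 3127 and 3263 reads, or 50.0 and 57.4 CPM (ratio 1.15, interval 1.09 to 1.21). Prf1, perforin, had 686 and 869 reads, or 11.0 and 15.3 CPM (ratio 1.39, interval 1.26 to 1.54). All 3 intervals lay above 1, and Gzma and Prf1 kept to each other, with Prf1 reads per Gzma read at a factor of 1.04 (0.926 to 1.17) between libraries. Gzmb lagged, with Gzma reads per Gzmb read at a factor of 1.17 (1.09 to 1.26). Per length Gzma was the most abundant of the 10 genes in both libraries, at 35.3 and 47.1 RPKM. Gzmb was at 26.2 and 30 RPKM and Prf1 at 4.23 and 5.88 RPKM. The granule genes and the CD8 chains differed in opposite directions on the TMM scale and per CD3 read. Relative to Ptprc they did not, with Gzma at 0.747, Gzmb at 0.639, Prf1 at 0.776 and both CD8 chains at 0.401, and against the sum of Cd2, Lck, Cd5 and Zap70 Gzmb was at 0.945. Per Cd8a read, Gzma was higher by a factor of 1.86 (1.71 to 2.03), Prf1 by 1.93 (1.71 to 2.19) and Gzmb by 1.59 (1.47 to 1.73).

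Among the other granule genes that reached the floor, the largest ratios belonged to granzymes of the Gzmb cluster on chromosome 14. Gzmg had 67 and 359 reads (ratio 5.87, interval 4.54 to 7.78), and Gzmf had 86 and 389 reads (ratio 4.96, interval 3.93 to 6.37). These genes are close copies of each other, which the counting could split, so their values are uncertain. Gzmc of the same cluster was at 13.5 and 10.1 CPM (ratio 0.749, interval 0.672 to 0.833), which differed in the other direction. Of 23 genes of the cytotoxic granule, 21 reached the floor, 7 were higher and 0 lower, beside 14.1% and 10.3% of all genes considered. The median log2 ratio of the list was 0.42, against -0.01 over all genes considered. Srgn, the proteoglycan that packs granules, was at 193 and 798 CPM (ratio 4.13, interval 4.04 to 4.21), and is abundant in myeloid cells too. Nkg7, a granule membrane protein of killer cells, was at 21.8 and 18.9 CPM (ratio 0.868, interval 0.80 to 0.941). Fasl, the death receptor ligand, was at 3.83 and 4.38 CPM (ratio 1.14, interval 0.953 to 1.37). Gzma lies on chromosome 13 at 113093825 to 113100981 and Gzmb on chromosome 14 at 56258838 to 56262260, both on the minus strand, and Prf1 on chromosome 10 at 61297833 to 61304680 on the plus strand.

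Natural killer cells share the granule genes but lack the CD3 complex at the surface. Of 18 entries for their receptors, 16 were in the table and 13 reached the floor, with 5 higher and 0 lower. The median log2 ratio of the list was 0.30, against -0.01 over all genes considered, where 14.1% were higher and 10.3% lower. Ncr1, the receptor NKp46 that defines them, was at 8.60 and 10.6 CPM (ratio 1.23, interval 1.09 to 1.38). Klrk1, the receptor NKG2D of natural killer and CD8 T cells, was at 19.7 and 21.9 CPM (ratio 1.11, interval 1.03 to 1.21). Klrc1 was at 8.48 and 6.58 CPM (ratio 0.776, interval 0.678 to 0.887). The 5 called genes were Klrb1b at 2.55 (2.11 to 3.11), Klrb1c, the receptor NK1.1, at 1.98 (1.55 to 2.56), Klrg1 at 1.97 (1.65 to 2.35), and Tyrobp, an adaptor that macrophages also express at high levels, at 2.18 (2.12 to 2.24), with Il18rap at 2.02 (1.90 to 2.14). How far natural killer cells, rather than T cells, supplied the granule transcripts was not tested.

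**Figure D3:**
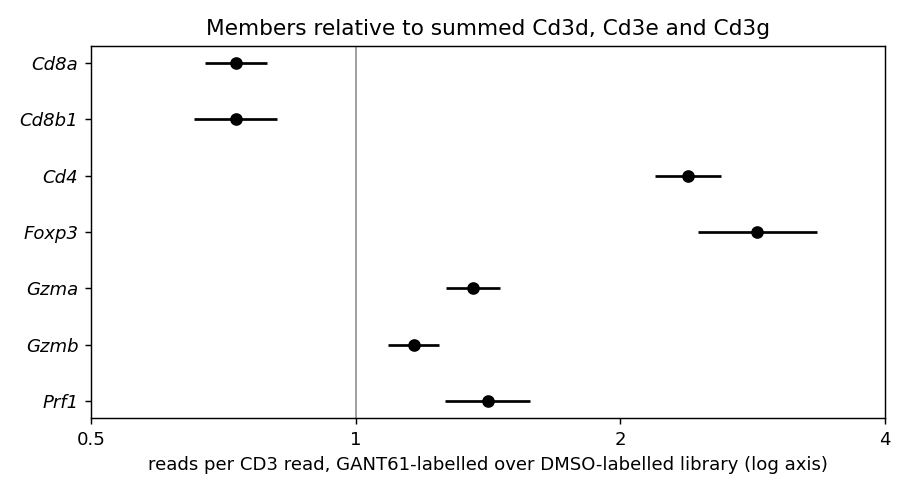
Reads of each gene per read of Cd3d, Cd3e and Cd3g summed, as GANT61-labelled over DMSO-labelled library on a log axis, with 95% exact conditional intervals, 1 library per group. Cd8a and Cd8b1 lie at 0.731, the granule genes between 1.16 and 1.41, and Cd4 and Foxp3 at 2.39 and 2.86.

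Levels were also set against the CD3 subunits within each library, which needs no scaling between libraries. Since 1 sum divides every gene, this shifts all ratios by 1 factor and keeps their order. Cd8a had 0.551 reads per CD3 read in the DMSO-labelled and 0.403 in the GANT61-labelled library, a factor of 0.731 (0.674 to 0.792). Cd8b1 had 0.256 and 0.187, also a factor of 0.731 (0.655 to 0.815). Cd4 had 0.262 and 0.627, a factor of 2.39 (2.19 to 2.61), and Foxp3 had 0.0624 and 0.179, a factor of 2.86 (2.45 to 3.35). Gzmb, Gzma and Prf1 stood between, at factors of 1.16, 1.36 and 1.41. Ptprc had 3.51 and 6.40 reads per CD3 read, a factor of 1.82 (1.73 to 1.92), so CD3 reads were fewer per Ptprc read in the GANT61-labelled library. Relative to Ptprc, Cd3e was at 0.555, Cd8a at 0.401 and Gzmb at 0.639 of the DMSO-labelled library, while Cd4 was at 1.31 and Foxp3 at 1.57. Ptprc is carried by all leukocytes, and of the 14 other genes in the macrophage list, 13 were higher and 1 lower.

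Cytokines of helper T cells were scarce, and the largest ratios among those that reached the floor belonged to the type 2 response. Il13 had 79 and 432 reads, or 1.26 and 7.60 CPM (ratio 5.99, interval 4.73 to 7.76). Il5 had 21 and 136 reads (ratio 6.99, interval 4.48 to 11.9), and Il4 had 35 and 106 reads (ratio 3.30, interval 2.26 to 5.04). In the DMSO-labelled library Il5 was at 0.336 and Il4 at 0.559 CPM. Both reached the floor only through the GANT61-labelled library, so passing it favoured a high ratio. The IL-4 given to the cells was added as protein and is not counted here. Mast cells and innate lymphoid cells also make these cytokines, and Hdc and Ms4a2, markers of mast cells or basophils, were at 4.29 (3.91 to 4.72) and 3.69 (2.83 to 4.92). Over 9 mast cell markers, 3 were higher and 0 lower, with summed levels of 105 and 160 CPM. Their part in these levels was not tested. Ifng, the cytokine of cytotoxic and type 1 helper cells, was at 5.02 and 6.02 CPM (ratio 1.20, interval 1.03 to 1.40). Il17a had 0 and 1 read, and Il22 had 0 in both, which allows up to 0.0479 and 0.0528 CPM. Of 17 entries for T cell cytokines, 11 reached the floor, of which 6 were higher and 0 lower, beside 14.1% and 10.3% of all genes considered. The median log2 ratio of the list was 0.66, against -0.01 over all genes considered. With a floor of 5 CPM the median of the list was 0.28, and the 2 higher genes were Il10 and Tnfsf11.

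**Figure D4:**
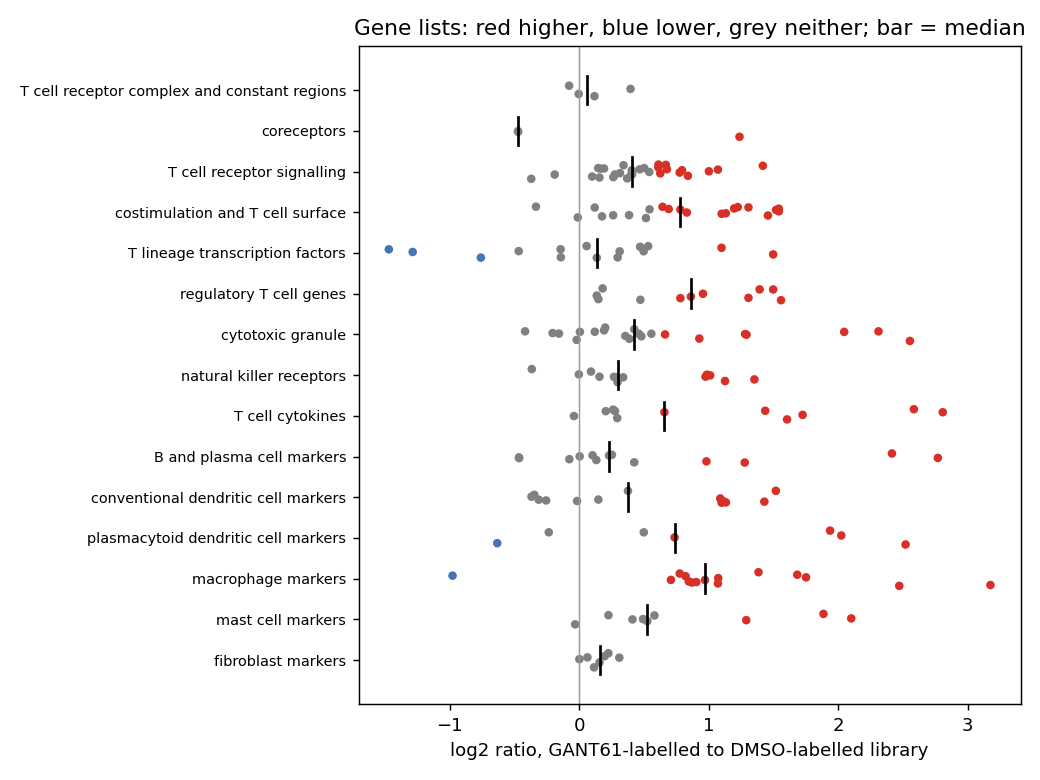
Log2 ratio, GANT61-labelled over DMSO-labelled library, for each gene with a mean of at least 1 CPM in 15 of the 18 lists, 1 point per gene, with the list median as a bar and the vertical scatter within a list without meaning. The endothelial, epithelial and adipocyte lists are not drawn, with medians of -0.42, -0.04 and -2.69. The receptor complex and fibroblast lists lie near 0, and the regulatory T cell and macrophage lists have medians of 0.86 and 0.97.

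Among all genes considered, the quartiles of the log2 ratio were -0.28 and 0.31. The 3 CD3 subunits and Gzmb lay within that range, at -0.08 to 0.20. The remaining genes lay outside it, with Cd8a and Cd8b1 below at -0.47, Gzma and Prf1 above at 0.42 and 0.48, and Cd4 and Foxp3 at 1.24 and 1.5. Cd4 exceeded 95.2% and Foxp3 96.7% of all genes considered, and the CD8 chains exceeded 13.7%. In level, the 10 genes ranged from 3.98 to 50.0 CPM in the DMSO-labelled library and from 11.2 to 57.4 CPM in the GANT61-labelled library, beside medians of 28.8 CPM over all genes considered in both.

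**Figure D5:**
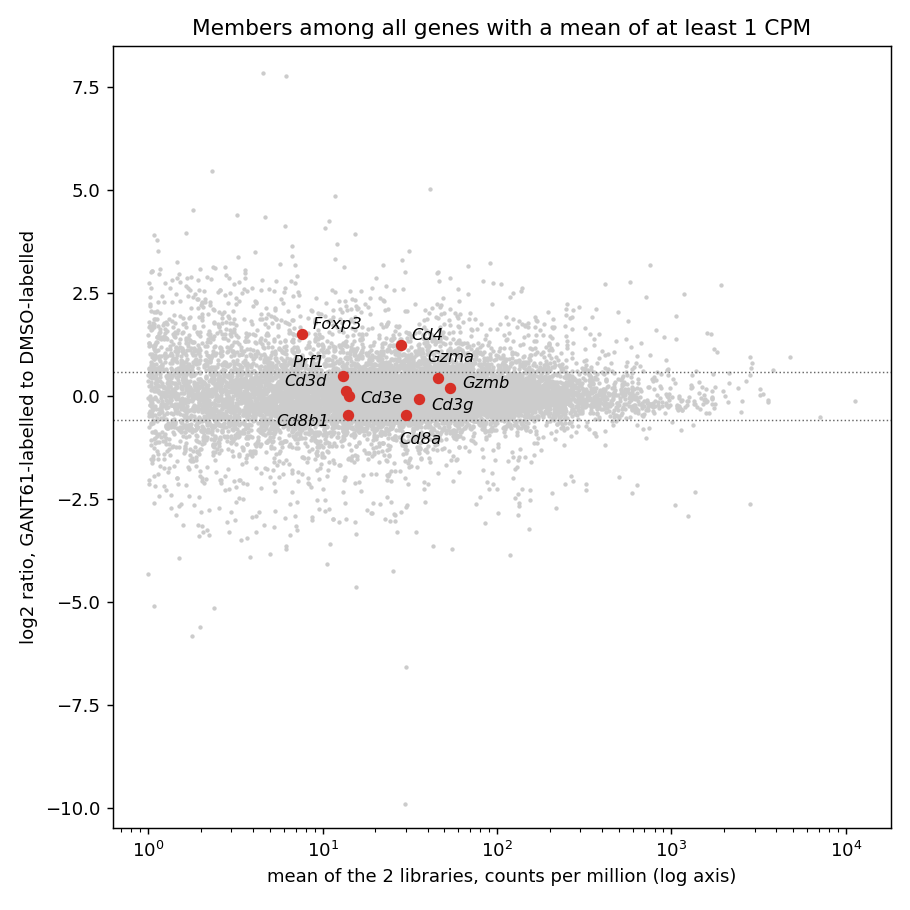
Log2 ratio, GANT61-labelled over DMSO-labelled library, against the mean level in CPM (log axis) for the 13939 genes considered (grey), with the 10 genes in red and the call thresholds as dotted lines. Foxp3 and Cd4 lie above the upper line, at 1.5 and 1.24, and the other 8 lie between the lines.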

How the data were processed

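Messenger RNA was measured in 2 libraries, 1 per group, with columns tied to samples by the treatment in their names. Their sample numbers did not match the titles. The authors deposited expected counts per gene, not normalized, and RPKM values, with units per the file names. Per the submitters' processing notes, Partek, SAMtools, STAR, cutadapt and HISAT2 were used with hg19 and mm10. The sources used here give no roles, versions, annotation or strand setting.

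Expected counts were rounded and scaled by TMM (edgeR 4.0.16, R 4.3.3). Ratios used a prior count of 0.5 and exact Clopper-Pearson 95% intervals, and reads per CD3 read used the conditional interval of the odds ratio (scipy 1.17.1). The ratio code was tested on simulated data. Alternatives were DESeq2 1.42.0 size factors, total counts, RPKM ratios, a prior count of 2, a fold of 2, floors of 0 and 5 CPM, unrounded counts and other denominators. Positions came from GENCODE M21. The 10 genes and the 18 lists (233 entries, 10 of them missing from the table) were chosen with earlier results of these data known. The naming rule took all 10 genes, Ptprc, and per list up to 4 called genes by size and 3 others by level. Other genes named, the upstream windows and the motifs were chosen after values were seen. Some genes that the rule names are left out here.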

Additional observations from a re-analysis of the deposited data

How the results depend on the processing

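The ratios of the 10 genes stayed within their counting intervals under DESeq2 size factors, total gene counts, deposited RPKM values, a prior count of 2 and unrounded counts, where the lowest ratio was 0.699 and the highest 2.83. The fold for a call and the floors do not enter the ratio. Cd4 and Foxp3 were the 2 genes called higher under each of these settings, a fold of 2 and both other floors included. Relative to Ptprc all 10 ratios moved, because Ptprc itself was at 1.80. They were 0.604 for Cd3d, 0.555 for Cd3e, 0.527 for Cd3g, 0.401 for Cd8a, 0.401 for Cd8b1, 1.31 for Cd4, 1.57 for Foxp3, 0.747 for Gzma, 0.639 for Gzmb and 0.776 for Prf1. With a fold of 2, 6.97% of all genes were higher and 4.27% lower. Against the sum of Cd2, Lck, Cd5 and Zap70 in place of the CD3 sum, Cd8a was at 0.593, Gzmb at 0.945, Cd4 at 1.94 and Foxp3 at 2.32. Of 252 list counts under these settings, 12 moved by over 1.5 times, mostly at a fold of 2. There, 3 genes of receptor signalling were higher in place of 11, 4 regulatory T cell genes in place of 7, 3 natural killer receptors in place of 5 and 7 macrophage markers in place of 14. With a floor of 5 CPM, 2 natural killer receptors and 2 T cell cytokines were higher, in place of 5 and 6. At that floor 11.7% of all genes were higher. The smallest counts, those of Foxp3, give the widest interval, and spread between replicates could not be measured. No paired analysis was possible because each group had 1 library.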

Other observations

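Genes of the B lineage differed among themselves. Ms4a1, Cd79a and Cd79b, of B cells, were at ratios of 1.17 (1.10 to 1.25), 0.949 (0.888 to 1.01) and 1.19 (1.10 to 1.29). Genes of antibody-secreting cells were higher, with Jchain, which joins secreted antibodies, at 224.8 and 1197.8 CPM (ratio 5.33, interval 5.23 to 5.43). Mzb1 was at 2.42 (2.28 to 2.59), and Tnfrsf17, a survival receptor of plasma cells, had 24 and 151 reads (ratio 6.81, interval 4.48 to 11.2). Tnfrsf17 was at 0.383 and 2.66 CPM. It reached the floor only through the GANT61-labelled library, so passing it favoured a high ratio. Of 13 markers of B and plasma cells, 4 were higher and 0 lower, beside 14.1% and 10.3% of all genes considered. The median log2 ratio of the list was 0.23, against -0.01 over all genes considered.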
